A study of Sus scrofa with 23 samples.

Results

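The genes described here set histone acetylation, move nucleosomes or write and read DNA methylation. They were the rows of the deposited expression table whose Ensembl symbol begins with HDAC, SIRT, KAT, SMARC, CHD, ARID, BRD, ING, DNMT, UHRF or MBD, in each case in the form of a numbered family member, or is TET1, TET2 or TET3. By this rule 51 of the 8603 genes of the table were members. They were 6 of the histone deacetylases (HDAC), 3 of the NAD-dependent sirtuins (SIRT), 6 of the lysine acetyltransferases (KAT), 3 ING proteins, 6 BRD proteins, 8 SMARC and 9 CHD genes, 4 ARID genes, 3 DNA methyltransferases (DNMT), 2 UHRF genes and 1 MBD gene. The table has 0 rows of the TET family, and TET genes are not analysed here.

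Histone acetyltransferases place acetyl groups on histone tails, bromodomain proteins bind them and deacetylases remove them, mostly as parts of large complexes such as SIN3, NuRD, CoREST and NCoR. Most of the SMARC genes and several ARID genes encode subunits of the SWI/SNF (BAF and PBAF) remodelling complexes, and the CHD genes encode a second family of ATP-driven remodellers. DNMT1 copies methylation onto the new DNA strand with the help of UHRF proteins, DNMT3A and DNMT3B place it anew, and the early mammalian embryo, which starts on RNA stored in the egg, loses much of it before implantation.

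The deposited table holds RNA levels of porcine oocytes and embryos in 23 libraries, 1 for each condition. The study also sequenced biological replicates of some NT-D and IV-D stages, on which the paper compared these groups stage by stage. Those replicates are not among the 23 libraries. The IV-D group held in vivo matured Duroc oocytes (OC) and embryos of inseminated Duroc sows at the 1-cell (1C), 2-cell (2C), 4-cell (4C), 8-cell (8C) and morula (MO) stage, with the blastocyst cut into a part of inner cell mass with trophectoderm (IT) and a part of trophectoderm alone (TE). The NT-D and NT-LW groups held embryos of the same stages made by nuclear transfer from ear fibroblasts of 1 Duroc and 1 Laiwu boar and grown in PZM3 medium, and the OC library of NT-D held the in vitro matured oocytes of hybrid sows into which both kinds of nuclei were put. The Duroc donor had also sired the IV-D embryos.

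Clones of a boar are male whereas the fertilized embryos were of both sexes, which concerns the 3 members on the X chromosome, HDAC6, HDAC8 and SMARCA1. Each library was a pool of oocytes or embryos. In pooled material, fewer cells of a type and less RNA per cell cannot be told apart. Levels are FPKM, the fragments of a gene scaled by its length and by the depth of the library, so levels of different genes were compared per length. Depth was 14952784 to 22991067 fragments a library, with a median of 18896560, of which 82.8% to 97.2% fell on the listed genes. For some low levels the number of fragments is given beside them. IV-D and NT-D levels are listed in the order OC, 1C, 2C, 4C, 8C, MO, IT and TE, and NT-LW levels from 1C to TE. All 51 members reached 1 FPKM somewhere, 20 of them in all 23 libraries, 33 reached 10 FPKM and 4 reached 100 FPKM (DNMT1, UHRF2, ARID4A and BRD7). The 10 of 11 oocyte marker genes in the table summed to between 6321 and 10151 FPKM in the libraries up to the 2-cell stage, to 42.4, 313 and 555 FPKM in IV-D, NT-D and NT-LW 8-cell embryos and to 12.1, 349 and 47 FPKM in the morulae of the same groups. The 6 of 12 fibroblast markers in the table summed to 126.8 and 145 FPKM in NT-D and NT-LW 4-cell embryos and to 5.48 FPKM in IV-D ones, and also to 65.6 FPKM in IV-D 1-cell embryos. The 7 of 10 trophectoderm markers summed to at most 2.55 FPKM before the 4-cell stage and to at least 2207 FPKM in each IT and TE library. The 5 of 9 inner cell mass markers summed to 89.3, 50 and 52.9 FPKM in the IT and to 31.2, 31.1 and 38.7 FPKM in the TE libraries of IV-D, NT-D and NT-LW.

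Upstream sequence is shown for the member that fell most and for 2 deacetylases that rose at the 4-cell to 8-cell step, as genes on which the account of this step turns. The 250 bases before the RefSeq gene start were read from Sscrofa11.1, the build of the deposited table, and run 5′ to 3′ on the strand of the gene. Capitals mark the GC box, GGGCGG or its reverse complement CCGCCC.
DNMT1, chr2:69040365-69040614, minus strand: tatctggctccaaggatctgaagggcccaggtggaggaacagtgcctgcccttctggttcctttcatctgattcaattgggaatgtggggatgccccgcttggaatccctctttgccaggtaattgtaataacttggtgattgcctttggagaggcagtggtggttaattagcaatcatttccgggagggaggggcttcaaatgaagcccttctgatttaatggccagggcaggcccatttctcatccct
HDAC1, chr6:88749361-88749610, plus strand: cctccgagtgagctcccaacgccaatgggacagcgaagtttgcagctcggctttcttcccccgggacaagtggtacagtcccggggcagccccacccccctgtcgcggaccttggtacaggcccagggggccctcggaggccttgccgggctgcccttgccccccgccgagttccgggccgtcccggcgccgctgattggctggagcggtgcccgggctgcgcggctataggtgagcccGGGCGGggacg
HDAC2, chr1:79901598-79901847, minus strand: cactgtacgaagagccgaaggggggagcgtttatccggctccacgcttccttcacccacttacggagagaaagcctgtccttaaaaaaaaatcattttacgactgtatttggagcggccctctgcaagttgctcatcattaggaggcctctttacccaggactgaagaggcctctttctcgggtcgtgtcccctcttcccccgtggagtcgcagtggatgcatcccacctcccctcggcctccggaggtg
The DNMT1 window held 0 GC boxes and 2 CpG. HDAC1 had 1 GC box and 24 CpG, and HDAC2 had 0 and 14. Of the 50 members with a RefSeq position, 27 (54.0%) held a GC box, as did 46.0% of 19509 protein-coding genes and 57.1% of 6811 genes of the table. The CCAAT box, CCAAT or ATTGG, stood in 16 members (32.0%) and in 31.9% of all. A GC box stood in 7 of the 14 members that fell from 4C to 8C and in 4 of the 10 that rose, with a median of 12.5 and 20 CpG in the window. Among the 26 members not called at this step, 16 held a GC box and the median was 19.5 CpG. The median was 16 CpG for the genes of the table and 12 for all protein-coding genes. A match of letters is a description of the window and not a binding site. The start used in the embryo was not measured.

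**Figure D1:**
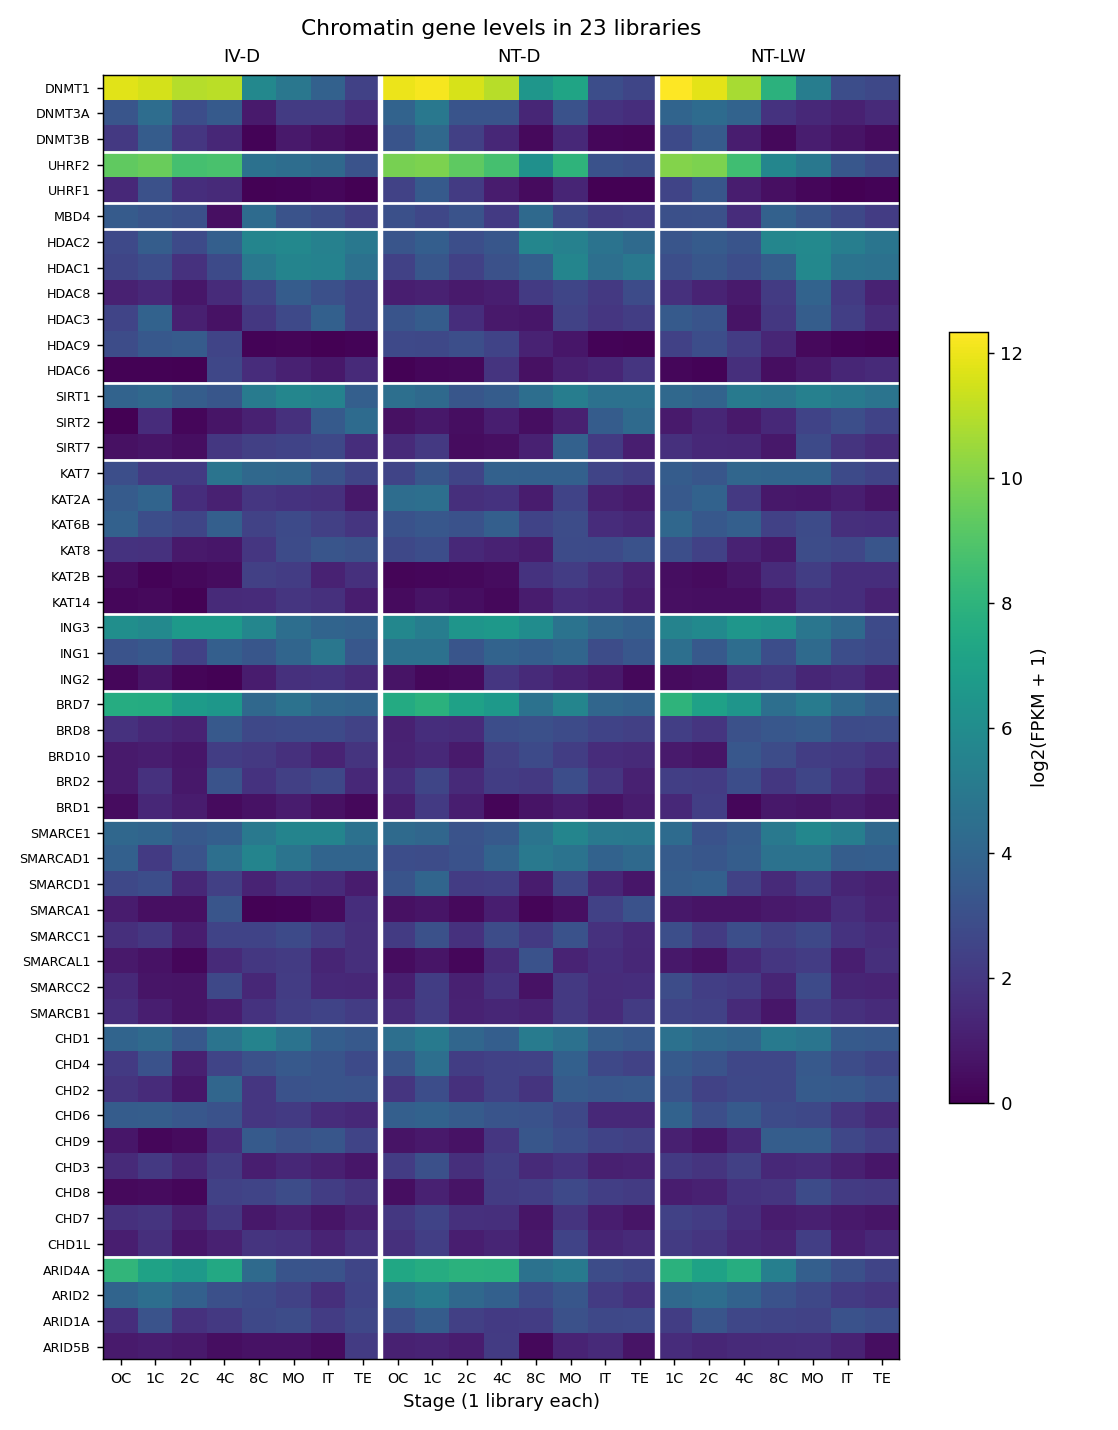
Level of the members (rows, grouped by family) in each of the 23 libraries (columns, 1 library a stage and embryo group), as log2(FPKM + 1) on the colour scale. DNMT1 and UHRF2 are the brightest rows up to the 4-cell stage and dim from the 8-cell stage onward, while HDAC1, HDAC2 and SMARCE1 brighten there.

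Before the 8-cell stage, 2 transcripts made up most of what the 51 genes gave. DNMT1 and UHRF2 together took 75.9% to 88.2% of the summed member FPKM in the 11 libraries of oocytes and 1-cell to 4-cell embryos, against 3.89% to 42.4% in the 12 later ones. The sum itself stood at 4976, 4377, 2900.2 and 3255 FPKM in IV-D from oocyte to 4-cell embryo and at 548, 529.6, 447 and 291 FPKM from 8-cell embryo to TE. A median member was not abundant. It stood between 1.55 and 6.97 FPKM in the 23 libraries. In IV-D 2-cell embryos 21 members were under 1 FPKM, so that 58.8% of members reached it, against 68.9% of all genes. For 23 of the 51 members the 2-cell library held the lowest IV-D level among the 7 embryo stages. In NT-D and NT-LW this held for 14 and 11 members. The median of all genes was 3.37 FPKM in the IV-D 2-cell library, against 4.49 and 7.19 FPKM in the NT-D and NT-LW ones. The 1-cell stage held the highest level of 14, 20 and 12 members in IV-D, NT-D and NT-LW, the 4-cell stage of 12, 5 and 7, and the morula of 9, 11 and 17. For 13 members the highest stage was the same in all 3 groups. Highest and lowest stages were not counted over all genes, so these counts describe the members alone.

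Stages were compared with each other in 1 fit over the 21 embryo libraries with terms for stage and embryo group, in which the 3 groups stand as repeats of a stage. Differences are those of log2(FPKM + 1) with their standard error (SE), tested with limma and adjusted over all 8601 genes that reached 1 FPKM. A difference with an adjusted p under 0.05 is called a rise or a fall. By its name the table holds genes that differed between conditions, and the share of all genes called is given beside each count of members.

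The 4-cell to 8-cell step moved more members, and also more of all genes, than any other of the 6 steps. From 4C to 8C, 10 members rose (19.6%, against 31.3% of all genes) and 14 fell (27.5%, against 26.7%). From 2C to 4C, 10 members rose (19.6%, against 16.1% of all genes) and 4 fell (7.84%, against 8.14%). From 8C to MO, 3 rose (5.88%, against 13.6%) and 2 fell (3.92%, against 6.62%). From MO to IT, 1 rose (1.96%, against 4.21%) and 6 fell (11.8%, against 11%). Between 1C and 2C limma called 0 members (0.151% of all genes), and between IT and TE 0 members (0.384% of all genes). At an unadjusted p under 0.05 there were 16 members from 1C to 2C (17.0% of all genes). Between IT and TE there were 2 (6.53% of all genes). With voom on recovered fragments 0 members were called in both comparisons as well. Between the mean of the 4 later stages (8C, MO, IT and TE) and the mean of the 3 earlier ones (1C, 2C and 4C), 20 members rose (39.2%, against 45.2% of all genes) and 18 fell (35.3%, against 38.5%).

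Median-ratio scaling of the libraries shifted the median difference of all genes by -0.21 at the 4C to 8C step, by -0.19 at the 2C to 4C step by 0.34 at the MO to IT step and by -0.23 between early and late stages. With it, 9 members rose and 22 fell from 4C to 8C, 10 rose and 8 fell from 2C to 4C, 1 rose and 1 fell from MO to IT, and 15 rose and 21 fell between the early and late stages. The shares of all genes called with this scaling are not given here, so these counts do not set the members apart from other genes. No call of these 4 comparisons changed its direction. Without the NT-D libraries, in a fit of 2 groups, 12 members were called from 4C to 8C and 4 from 2C to 4C, and from 8C to MO and from MO to IT it was 0. Under all 10 other fits the calls of 12 of the 24 members of the 4C to 8C step held (ARID4A, BRD7, CHD3, CHD9, DNMT1, DNMT3A, HDAC2, HDAC9, KAT2B, MBD4, SMARCE1 and UHRF2), and those of 4 of the 14 members of the 2C to 4C step (BRD8, BRD10, HDAC6 and MBD4). Of the 5 calls from 8C to MO and the 7 from MO to IT, 0 held under all of them, and 31 of the 38 between early and late stages did.

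**Figure D2:**
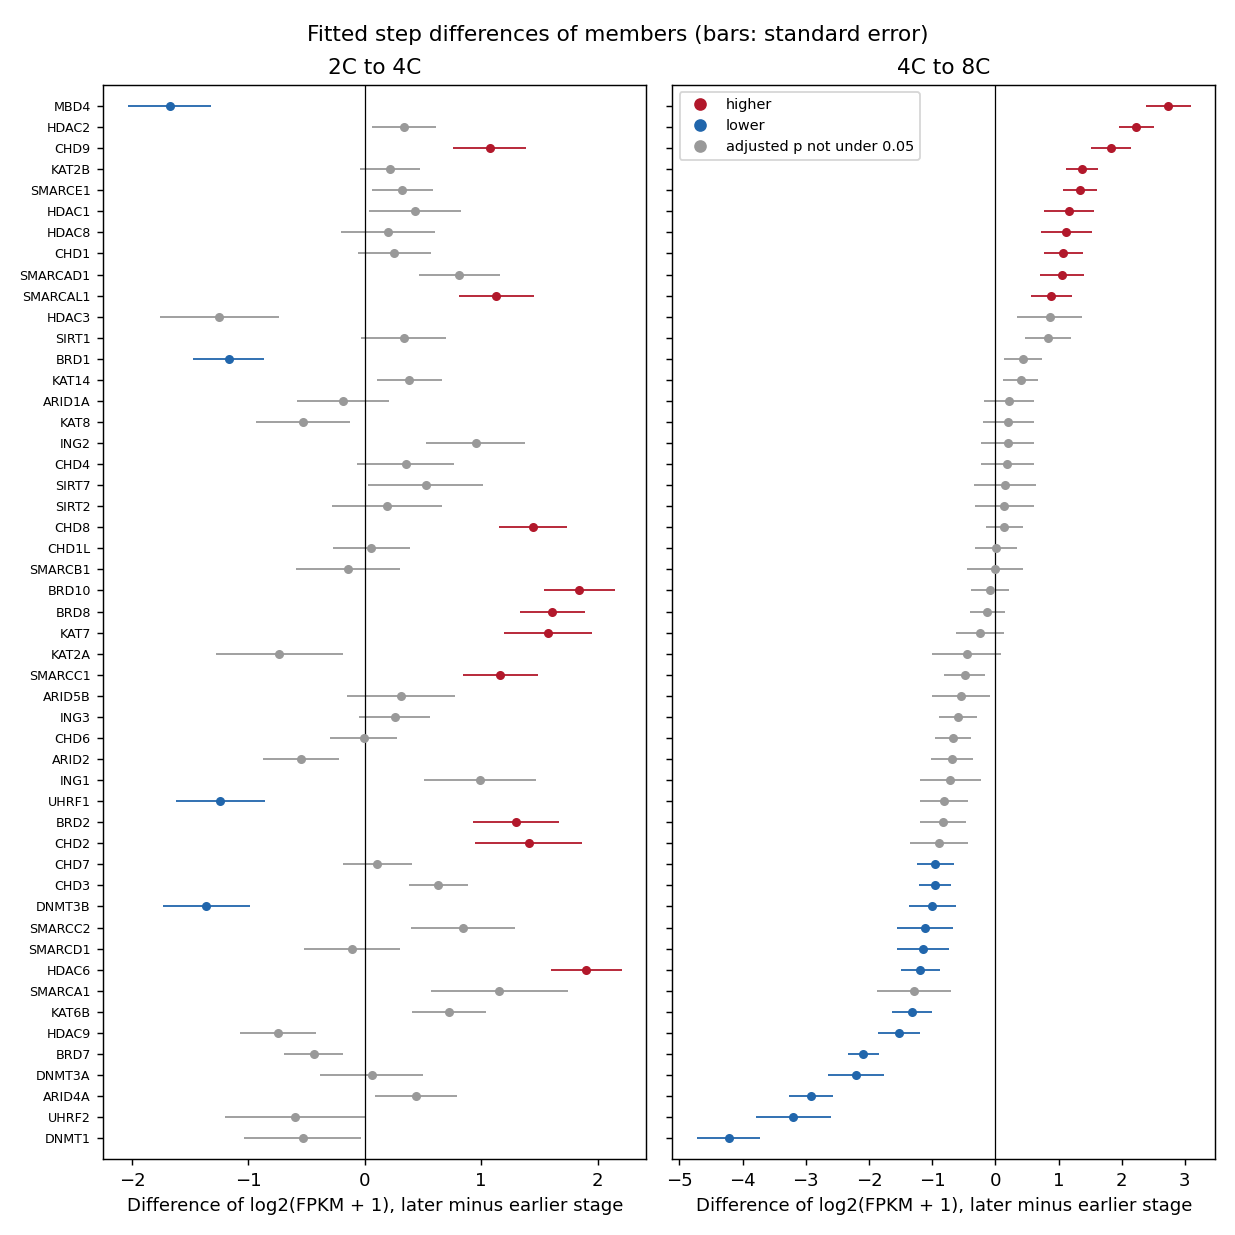
Fitted difference of log2(FPKM + 1) from 2C to 4C (left) and from 4C to 8C (right), later minus earlier stage on the horizontal axis, for the members, sorted by the 4C to 8C difference, with bars of 1 standard error over 21 libraries. From 4C to 8C the members in blue fell, with DNMT1 at -4.22, and those in red rose, with MBD4 at 2.74.

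All 3 DNA methyltransferase genes in the table and UHRF2 fell at the 4-cell to 8-cell step, as did 26.7% of all genes. Each of these members stood lower at 8C than at 4C in all 3 embryo groups. DNMT1, the maintenance enzyme, had the highest level of any member. The transcript stood at 3581, 2971, 2029.9, 2162, 53.6, 28.7, 13 and 4.22 FPKM from IV-D oocyte to TE. In NT-D it stood at 4097, 4572, 3095, 2083, 88.7, 147, 6.58 and 4.91 FPKM and in NT-LW, from 1C to TE, at 5206, 3709, 1702, 240.5, 37, 6.53 and 5.3 FPKM. The lowest of the 11 libraries up to 4C lay above the highest of the 12 later ones, and the step from 4C to 8C was a fall of 4.22 ± 0.50 (SE) on the log2 scale (limma, adjusted p = 2.22e-06). The NT-LW 8-cell and the NT-D morula library stood above the other libraries of their stages. A second fall, of 2.57 ± 0.50, came between MO and IT (limma, adjusted p = 0.00383), and it was not called without the NT-D or without the NT-LW libraries (highest adjusted p 0.277).

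UHRF2, a RING finger protein that binds methylated DNA, followed the same course at a lower level. From oocyte to TE the IV-D libraries stood at 643, 743, 422, 442, 23.5, 20.1, 17.2 and 7.92 FPKM. The NT-D libraries stood at 888, 964, 614, 423, 73.6, 257, 7.55 and 6.71 FPKM and the NT-LW libraries, from 1C, at 1060.1, 947, 378, 49.7, 29.9, 9.33 and 6.2 FPKM. UHRF2 fell by 3.19 ± 0.60 (SE) from 4C to 8C (limma, adjusted p = 2.16e-04). The NT-D morulae, with 257 FPKM, stood above the NT-D 8-cell embryos with 73.6, and they were also the morula library with the highest sum of oocyte markers (349 FPKM against 12.1 and 47). The part of oocyte RNA in this value was not tested. UHRF1, which guides DNMT1 to newly copied DNA, was a low transcript. It stood at 1.66, 7.27, 2.09, 1.77, 0.0599, 0.0935, 0.152 and 0 FPKM in IV-D, at 4.35, 10.4, 3.48, 0.901, 0.281, 1.45, 0 and 0 in NT-D and at 4.71, 9.02, 0.99, 0.406, 0.182, 0.0115 and 0.0837 in NT-LW libraries. UHRF1 fell by 1.24 ± 0.38 (SE) from 2C to 4C (limma, adjusted p = 0.0221), which was not called with a pseudocount of 0.1, with voom or without the NT-D or the NT-LW libraries, and by 1.93 ± 0.21 between early and late stages (limma, adjusted p = 5.91e-08).

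DNMT3A and DNMT3B, the enzymes of new methylation, peaked in 1-cell or 2-cell embryos. DNMT3A stood at 8.6, 20.1, 6.58, 10.1, 0.831, 3.37, 3.44 and 1.94 FPKM in IV-D, at 14.4, 29.8, 8.32, 8.29, 1.55, 7.66, 2.56 and 2.09 in NT-D and at 15, 18.8, 14.3, 2.5, 1.66, 1.19 and 1.74 in NT-LW libraries. It fell by 2.20 ± 0.44 (SE) from 4C to 8C (limma, adjusted p = 3.94e-04), from between 8.29 and 14.3 FPKM to between 0.831 and 2.5 FPKM. DNMT3B stood at 3.17, 11.2, 2.81, 1.58, 0.0883, 0.806, 0.476 and 0.243 FPKM in IV-D, at 8.33, 17.2, 4.02, 1.56, 0.248, 1.71, 0.171 and 0.116 in NT-D and at 5.93, 10.7, 0.991, 0.212, 1.01, 0.552 and 0.28 in NT-LW libraries. DNMT3B fell earlier, by 1.36 ± 0.37 from 2C to 4C (limma, adjusted p = 0.0115), and again by 1.0 ± 0.37 from 4C to 8C (limma, adjusted p = 0.0292). Both calls were lost without the NT-D libraries, the first also without NT-LW and the second also without IV-D (adjusted p up to 0.168 and 0.138). In each group the 8-cell library was the first at under 0.25 FPKM, which still rested on 11 to 29 fragments.

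MBD4, a glycosylase that removes thymine from mismatches with guanine, was the member with a dip at 4C and the largest rise at 8C. It stood at 10.6, 8.64, 7.11, 0.401, 18.7, 7.81, 6.29 and 4.02 FPKM in IV-D, at 7.11, 5.1, 7.82, 3.28, 17.9, 5.43, 3.45 and 3.88 in NT-D and at 7.02, 7.22, 2.0, 13.3, 8.42, 5.43 and 3.63 in NT-LW libraries. The fall from 2C to 4C was 1.68 ± 0.36 (SE; limma, adjusted p = 0.00178) and the rise from 4C to 8C 2.74 ± 0.36 (limma, adjusted p = 5.96e-06). The 4-cell library was the lowest of each group, and the lowest of all was the IV-D one, at 37 fragments. From 8C to MO it fell by 1.11 ± 0.36 (limma, adjusted p = 0.0363), a call lost with a pseudocount of 0.1 and without the TE, the NT-D or the NT-LW libraries. TDG, a thymine glycosylase outside the families of the rule, ran the opposite way from 2C to 4C. TDG stood at 0.218, 0.111 and 0.148 FPKM in the IV-D, NT-D and NT-LW 2-cell libraries and at 60, 72.7 and 104 FPKM in the 4-cell libraries, a rise of 6.07 ± 0.37 (SE; limma, adjusted p = 3.16e-09). At 8C it stood at 20.7, 17.9 and 6.64 FPKM.

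**Figure D3:**
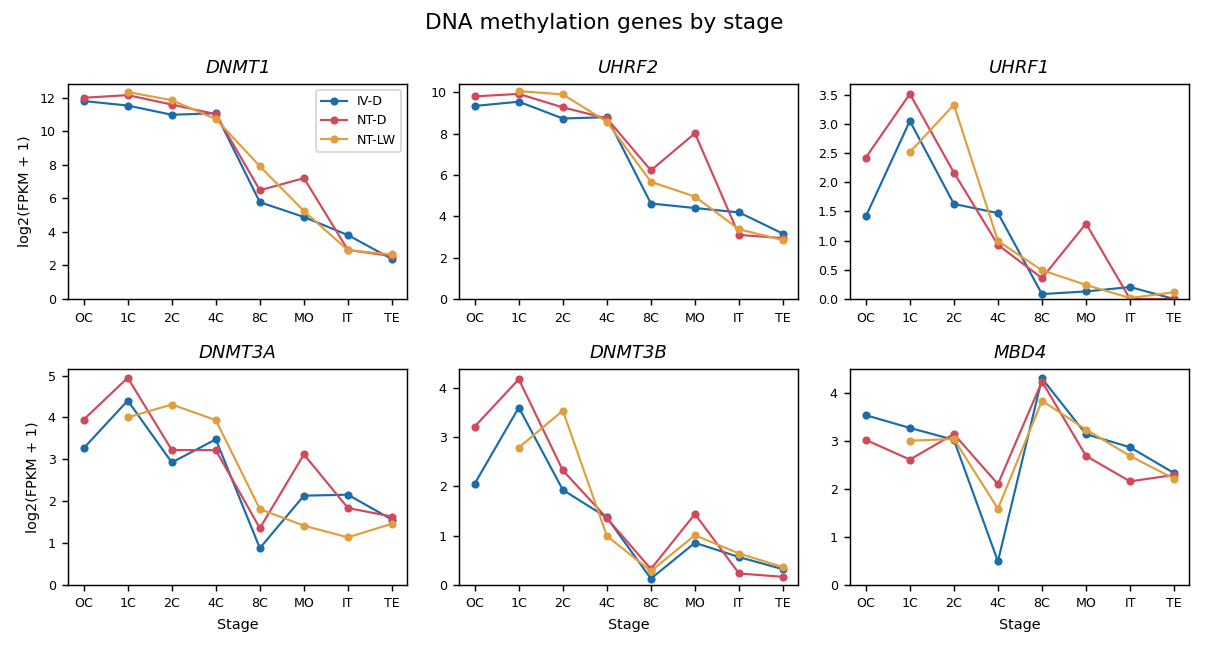
Level of the 6 DNA methylation members by stage as log2(FPKM + 1), each panel with its own axis from 0 and each point 1 library of IV-D (blue), NT-D (red) or NT-LW (orange). The lines of DNMT1, UHRF2 and DNMT3A drop between 4C and 8C in all 3 groups, MBD4 has its lowest point at 4C, and the NT-D morula stands out for DNMT1 (147 FPKM) and UHRF2 (257 FPKM).

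Among the deacetylases, HDAC1, HDAC2 and HDAC8 rose and HDAC6 and HDAC9 fell from 4C to 8C. HDAC1 and HDAC2 are the catalytic subunits of SIN3, NuRD and CoREST. HDAC2 stood at 5.68, 11.3, 5.86, 12.3, 48.1, 53.6, 42.4 and 29.3 FPKM in IV-D, at 8.46, 12, 6.73, 9.03, 49.9, 42.5, 25.3 and 18.4 in NT-D and at 8.69, 10.7, 8.36, 50.6, 54.9, 37.6 and 27.2 in NT-LW libraries. Each of the 12 libraries from 8C onward lay above each of the 11 earlier ones, and the step was a rise of 2.23 ± 0.28 (SE; limma, adjusted p = 3.50e-06). HDAC1 stood at 4.9, 6.44, 2.44, 5.92, 29.6, 46.1, 43.2 and 23.1 FPKM in IV-D, at 4.31, 8.78, 4.25, 7.36, 12, 48.7, 21.7 and 29.9 in NT-D and at 6.82, 8.89, 6.56, 11.4, 52.4, 24.8 and 23.6 in NT-LW libraries. Its rise was 1.17 ± 0.39 from 4C to 8C (limma, adjusted p = 0.0169) and 1.55 ± 0.39 from 8C to MO (limma, adjusted p = 0.00977). Without the NT-D libraries neither was called. The first was also lost without IV-D and the second without NT-LW (limma, adjusted p up to 0.0990 and 0.257). In IV-D the 8-cell library already held 29.6 FPKM, while NT-D and NT-LW 8-cell embryos held 12 and 11.4 FPKM. The morulae of the 3 groups lay close together, at 46.1, 48.7 and 52.4 FPKM.

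HDAC3, the enzyme of the NCoR complex, and HDAC8, known to deacetylate cohesin, were lower. HDAC3 stood at 4.86, 13.9, 1.11, 0.527, 3.04, 5.69, 12.8 and 4.97 FPKM in IV-D, at 8.23, 11.2, 2.11, 0.819, 0.661, 4.49, 2.86 and 3.77 in NT-D and at 10.1, 8.09, 0.597, 2.98, 11.5, 3.88 and 1.87 in NT-LW libraries. The 4-cell libraries, all under 1 FPKM, were the lowest of IV-D and NT-LW, and no step of HDAC3 passed the test (2C to 4C -1.25 ± 0.51, limma, adjusted p = 0.0869). HDAC8 stood at 1.23, 1.71, 0.698, 1.89, 4.84, 11.2, 7.17 and 4.97 FPKM in IV-D, at 1.06, 1.22, 0.827, 1.07, 3.3, 4.98, 3.18 and 6.0 in NT-D and at 2.3, 1.35, 0.838, 3.5, 14.4, 3.26 and 1.24 in NT-LW libraries. It rose by 1.12 ± 0.40 (SE) from 4C to 8C (limma, adjusted p = 0.0241) and by 1.38 ± 0.22 between early and late stages (limma, adjusted p = 1.07e-05). The first of these calls was lost without the IV-D or without the NT-D libraries.

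HDAC6, a mostly cytoplasmic deacetylase of tubulin, rose at the 4-cell stage from a level near 0. It stood at 0.0594, 0.0458, 0.0331, 5.14, 1.94, 1.22, 0.719 and 1.73 FPKM in IV-D, at 0.0418, 0.173, 0.182, 2.58, 0.46, 1.09, 1.51 and 2.73 in NT-D and at 0.149, 0.0751, 2.13, 0.357, 0.805, 1.55 and 1.75 in NT-LW libraries. All 8 libraries before 4C held at most 13 fragments, and the 4-cell libraries 153 to 321. The rise from 2C to 4C was 1.90 ± 0.30 (SE; limma, adjusted p = 1.24e-04) and the fall to 8C 1.19 ± 0.30 (limma, adjusted p = 0.00282). The fall was not called without the NT-D libraries. HDAC9, of the class IIa deacetylases, stood at 6.19, 9.46, 10.7, 4.8, 0.0829, 0.135, 0 and 0.076 FPKM in IV-D, at 5.63, 5.42, 6.78, 4.55, 1.28, 0.661, 0.0938 and 0.0546 in NT-D and at 4.3, 6.56, 3.5, 1.48, 0.225, 0.0925 and 0 in NT-LW libraries. It fell by 1.52 ± 0.33 from 4C to 8C (limma, adjusted p = 7.39e-04). At 8C the IV-D library held 6 fragments of HDAC9, the NT-D and NT-LW libraries 87 and 85. IT of IV-D and TE of NT-LW held 0, which at that depth allows up to 3 fragments.

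The 3 sirtuins in the table, of 7 Ensembl symbols of the family, were higher in late than in early stages, as were 45.2% of all genes. SIRT1 was highest at the morula and SIRT2 in the blastocyst parts. SIRT1, the nuclear sirtuin that deacetylates histones and transcription factors, stood at 14.1, 17.2, 11.6, 8.81, 34.7, 50.3, 43.5 and 12.5 FPKM in IV-D, at 21.5, 17.9, 9.01, 11.2, 20.8, 36.3, 23.4 and 23 in NT-D and at 17, 14.5, 31.7, 27.6, 40.3, 33.4 and 25.6 in NT-LW libraries. It was 0.97 ± 0.20 (SE) higher in late than in early stages (limma, adjusted p = 1.69e-04), and the NT-LW 4-cell library stood apart from the 2 others of its stage. SIRT2, which acts mainly in the cytoplasm, stood at 0, 1.93, 0.148, 0.602, 1.19, 2.26, 10.4 and 19 FPKM in IV-D, at 0.449, 0.717, 0.377, 1.04, 0.353, 1.12, 10.9 and 18.1 in NT-D and at 0.867, 1.55, 0.819, 1.71, 4.6, 6.94 and 4.59 in NT-LW libraries. It rose by 1.60 ± 0.47 from MO to IT (limma, adjusted p = 0.0317), and this was not called with a pseudocount of 0.1, with voom or without the IV-D or the NT-D libraries. SIRT2 of NT-LW reached 6.94 and 4.59 FPKM in IT and TE, where IV-D and NT-D had 10.4 to 19. SIRT7, a nucleolar sirtuin, stood between 0.329 and 13.2 FPKM, with a median of 1.9, and rose by 1.59 ± 0.50 from 8C to MO (limma, adjusted p = 0.0313), a call lost with a pseudocount of 0.1, with voom and without the NT-D or the NT-LW libraries.

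**Figure D4:**
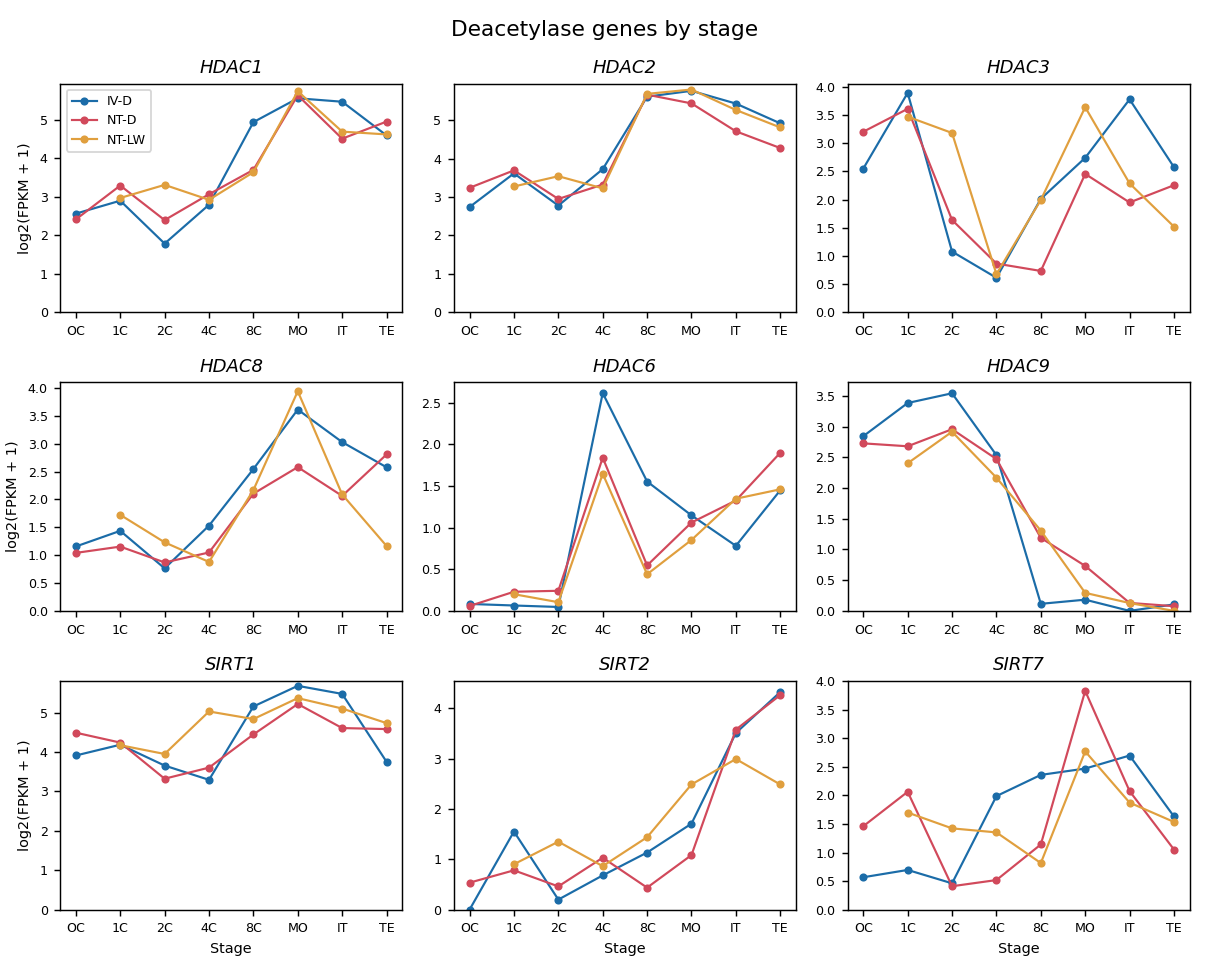
Level of the 6 HDAC and 3 SIRT members by stage as log2(FPKM + 1), each panel with its own axis from 0 and each point 1 library of IV-D (blue), NT-D (red) or NT-LW (orange). HDAC2 steps up at 8C in all 3 groups, HDAC1 at 8C in IV-D (29.6 FPKM) and at MO in the clones (48.7 and 52.4 FPKM), and HDAC6 leaves the floor at 4C in all 3.

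Of the 6 acetyltransferase genes, KAT7 rose at 4C and KAT2B at 8C, KAT6B fell at 8C and KAT8 rose at MO. KAT7, the HBO1 enzyme that acetylates histone H3 and H4 around replication origins, stood at 6.93, 3.23, 3.22, 25.9, 16.8, 15.9, 7.96 and 4.8 FPKM in IV-D, at 4.76, 8.74, 4.74, 13.2, 12.7, 12.9, 4.8 and 3.66 in NT-D and at 11.2, 8.98, 15.6, 14.8, 14.5, 5.73 and 4.57 in NT-LW libraries. The rise from 2C to 4C was 1.57 ± 0.38 (SE; limma, adjusted p = 0.00444). KAT2A and KAT2B, which encode GCN5 and PCAF, ran opposite ways. KAT2A stood at 10.8, 14.9, 2.11, 1.22, 2.82, 2.47, 2.24 and 0.707 FPKM in IV-D, at 20.3, 21.6, 2.2, 2.52, 0.889, 4.65, 1.1 and 0.842 in NT-D and at 9.82, 13.9, 3.11, 0.736, 0.703, 1.07 and 0.578 in NT-LW libraries. It was 1.45 ± 0.30 lower in late than in early stages (limma, adjusted p = 1.76e-04), with the highest level of IV-D and NT-D at 1C and of NT-LW at 2C. KAT2B stood at 0.353, 0.0889, 0.20, 0.341, 4.09, 3.62, 1.27 and 2.28 FPKM in IV-D, at 0.108, 0.162, 0.208, 0.349, 2.45, 3.58, 2.12 and 1.28 in NT-D and at 0.385, 0.299, 0.625, 1.9, 3.66, 2.09 and 2.05 in NT-LW libraries. Every library up to 4C lay under every later one, with 0.625 FPKM as the highest of the former and 1.27 as the lowest of the latter, and the rise from 4C to 8C was 1.37 ± 0.26 (limma, adjusted p = 2.01e-04). KAT6B, the MORF enzyme, stood between 1.64 and 16.4 FPKM and fell by 1.31 ± 0.32 from 4C to 8C (limma, adjusted p = 0.00184). KAT8, the MOF enzyme of histone H4 lysine acetylation, rose by 1.60 ± 0.40 from 8C to MO (limma, adjusted p = 0.00951). These step calls of KAT7, KAT6B and KAT8 were lost without the NT-D libraries, that of KAT8 also without NT-LW. KAT14, a subunit of the ATAC complex, was 0.86 ± 0.15 higher in late than in early stages (limma, adjusted p = 3.59e-05) and never passed 2.77 FPKM.

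ING proteins carry a PHD finger that binds methylated histone H3 and bring acetyltransferases or deacetylases to it. ING3, of the NuA4 acetyltransferase complex, was the most abundant of them. It stood at 67.6, 56, 98.8, 98.2, 50.5, 21.3, 14.6 and 13.3 FPKM in IV-D, at 50.9, 36.3, 85.3, 95.9, 63.4, 25.2, 16 and 12.6 in NT-D and at 45.4, 58, 89.4, 75, 27.8, 17.9 and 5.86 in NT-LW libraries. The highest library of each group was 2C or 4C, and ING3 fell by 1.30 ± 0.30 (SE) from 8C to MO (limma, adjusted p = 0.00594), a call lost without the NT-D libraries. ING1, of the SIN3 deacetylase complex, stood at 7.89, 9.45, 4.21, 12.3, 9.03, 15.2, 28.5 and 9.34 FPKM in IV-D, at 23.1, 23.1, 8.49, 14.1, 11.8, 15.3, 6.4 and 9.25 in NT-D and at 22, 9.99, 20.3, 6.54, 18.5, 6.56 and 5.31 in NT-LW libraries. None of its 6 steps passed the test, and the IV-D IT library was its highest. ING2, also of SIN3, stood between 0.0578 and 2.97 FPKM and was 0.62 ± 0.23 higher in late than in early stages (limma, adjusted p = 0.0186), which was not called with median-ratio scaling or without the IV-D or the NT-LW libraries.

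Of the BRD genes, BRD7 fell from 4C to 8C, BRD2, BRD8 and BRD10 rose from 2C to 4C and BRD1 fell at that step. BRD7, a subunit of the PBAF remodeller, stood at 196, 189.8, 109.6, 92.5, 16.8, 24.1, 16.7 and 14.8 FPKM in IV-D, at 187, 233, 132, 96.8, 24.2, 48.2, 15.7 and 13.8 in NT-D and at 264, 134, 86, 22, 34.3, 17.9 and 11.6 in NT-LW libraries. It fell by 2.09 ± 0.25 (SE) from 4C to 8C (limma, adjusted p = 2.38e-06). From MO to IT, BRD7, CHD1, KAT6B and UHRF2 fell as DNMT1 did, UHRF2 by 2.24 ± 0.60 and BRD7 by 0.99 ± 0.25 (limma, adjusted p = 0.0206 and 0.0157), and none of these 4 calls held with median-ratio scaling. BRD8, of the NuA4 complex, stood at 2.33, 1.7, 1.24, 9.94, 5.32, 5.73, 5.87 and 4.39 FPKM in IV-D, at 1.19, 2.02, 1.88, 6.5, 7.04, 6.04, 4.53 and 4.07 in NT-D and at 3.96, 2.73, 7.35, 9.33, 10.7, 6.03 and 6.19 in NT-LW libraries. Its rise from 2C to 4C was 1.61 ± 0.28 (limma, adjusted p = 2.60e-04). BRD10 stood at 0.835, 0.959, 0.699, 3.72, 3.08, 2.25, 1.37 and 2.62 FPKM in IV-D, at 1.25, 1.7, 0.88, 4.1, 5.8, 3.69, 1.93 and 1.75 in NT-D and at 0.837, 0.642, 9.07, 6.34, 3.75, 3.27 and 2.46 in NT-LW libraries. It rose by 1.84 ± 0.31 at the same step (limma, adjusted p = 1.73e-04). BRD2, a bromodomain protein of the BET family, rose by 1.30 ± 0.37 from 2C to 4C (limma, adjusted p = 0.014), a call lost without IV-D or without NT-D libraries. BRD1, a scaffold of KAT7 complexes, fell by 1.17 ± 0.30 (limma, adjusted p = 0.00803) and stood at 0.141 to 0.268 FPKM in the 4-cell libraries. That fall was not called without the NT-D or without the NT-LW libraries.

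Of the 8 SMARC genes, SMARCE1, SMARCAD1 and SMARCAL1 rose and SMARCD1 and SMARCC2 fell from 4C to 8C. SMARCE1, an accessory subunit of SWI/SNF, stood at 16.5, 14.7, 10.1, 12.1, 31, 46.7, 47.3 and 23.4 FPKM in IV-D, at 18.1, 15.9, 8.06, 9.82, 25.7, 47.4, 31.2 and 30.2 in NT-D and at 18.8, 7.51, 10.7, 30.6, 52, 37.4 and 16.6 in NT-LW libraries. Its rise was 1.34 ± 0.26 (SE; limma, adjusted p = 3.06e-04), and every library from 8C onward except TE of NT-LW lay above every library of 1C to 4C. SMARCAD1, a remodeller that works at replicating and damaged DNA, stood at 12.8, 3.27, 7.97, 22, 46.1, 25.5, 14.6 and 14.6 FPKM in IV-D, at 6.55, 6.42, 7.76, 14, 31, 24.9, 13.5 and 17.5 in NT-D and at 10.6, 9.0, 11.3, 24, 24.3, 11.6 and 12 in NT-LW libraries. It rose by 1.05 ± 0.35 (limma, adjusted p = 0.0152), a call lost without the NT-D libraries. SMARCA1, the ISWI remodeller SNF2L on the X chromosome, stood at 0.95, 0.407, 0.426, 8.42, 0.034, 0.0884, 0.276 and 2.03 FPKM in IV-D, at 0.486, 0.649, 0.244, 1.07, 0.133, 0.407, 4.19 and 7.66 in NT-D and at 0.73, 0.552, 0.56, 0.769, 0.938, 1.95 and 1.36 in NT-LW libraries. Its 4-cell level in IV-D came from 573 fragments, against 69 and 46 in NT-D and NT-LW, and the highest NT-D level was that of TE. The stage steps of SMARCA1 did not pass the test (2C to 4C 1.16 ± 0.59, limma, adjusted p = 0.175). Among the core and signature subunits of SWI/SNF, SMARCC1 rose by 1.16 ± 0.32 from 2C to 4C (limma, adjusted p = 0.0123), SMARCD1 fell by 1.15 ± 0.41 and SMARCC2 by 1.11 ± 0.45 from 4C to 8C (limma, adjusted p = 0.0236 and 0.0405), and the fall of SMARCC2 was not called with voom. All 3 calls were lost without the NT-D libraries. SMARCAL1, an annealing helicase of stalled replication forks, rose by 1.13 ± 0.32 from 2C to 4C and by 0.88 ± 0.32 from 4C to 8C (limma, adjusted p = 0.0149 and 0.0264), and neither rise was called without the NT-D or without the NT-LW libraries. The first was also lost without IV-D (highest adjusted p 0.101) and the second with a pseudocount of 0.1, median-ratio scaling or voom.

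The CHD remodellers moved at both steps. CHD9 stood at 0.678, 0.169, 0.274, 1.96, 10.2, 7.41, 9.0 and 4.85 FPKM in IV-D, at 0.551, 0.773, 0.496, 2.91, 8.73, 6.59, 4.59 and 4.11 in NT-D and at 1.15, 0.697, 1.6, 11.4, 11.6, 5.17 and 3.9 in NT-LW libraries. It rose by 1.07 ± 0.31 (SE) from 2C to 4C (limma, adjusted p = 0.0171) and by 1.83 ± 0.31 from 4C to 8C (limma, adjusted p = 9.22e-05), and every library from 8C onward was above every earlier one. The rise of CHD9 from 2C to 4C was not called when any 1 of the 3 embryo groups was left out. CHD1, which binds methylated histone H3 at active genes, stood at 14.5, 18.1, 9.43, 25.9, 44.6, 25, 11.9 and 10 FPKM in IV-D, at 22.1, 31.9, 16.1, 11.7, 34.2, 23.3, 11.4 and 9.65 in NT-D and at 23.3, 17.3, 15.2, 31.4, 26.5, 10.4 and 9.44 in NT-LW libraries. The 8-cell library was the highest of each group, after a rise of 1.08 ± 0.31 (limma, adjusted p = 0.00695), a call lost without the NT-D or without the NT-LW libraries. CHD2 stood at 2.62, 1.89, 0.702, 15.9, 2.88, 7.78, 8.25 and 7.82 FPKM in IV-D, at 2.8, 6.57, 2.29, 4.19, 2.64, 10.8, 9.2 and 10.1 in NT-D and at 7.98, 4.34, 5.38, 5.18, 10.8, 10.1 and 7.51 in NT-LW libraries. Its rise from 2C to 4C, of 1.41 ± 0.46 (limma, adjusted p = 0.0308), was not called without the IV-D libraries, whose 4-cell level was the highest, or without the NT-D libraries. CHD4, the NuRD remodeller, stood at 3.26, 7.68, 1.15, 4.76, 7.3, 10, 8.14 and 5.81 FPKM in IV-D, at 8.48, 21.8, 3.72, 4.29, 4.39, 12.7, 5.38 and 4.42 in NT-D and at 10.2, 7.93, 5.19, 5.24, 10, 6.38 and 4.9 in NT-LW libraries. None of its 6 steps passed the test. CHD8 rose by 1.45 ± 0.30 from 2C to 4C (limma, adjusted p = 0.00122), while CHD3, the second NuRD remodeller, and CHD7 fell by 0.95 ± 0.25 and 0.95 ± 0.30 from 4C to 8C (limma, adjusted p = 0.00387 and 0.011). The calls of CHD8 and CHD7 were lost without the NT-D libraries, whereas that of CHD3 held under all 10 other fits. CHD6 was 1.42 ± 0.15 lower in late than in early stages (limma, adjusted p = 8.56e-08), and CHD1L, a remodeller activated by PARP, ranged from 0.653 to 4.58 FPKM with 0 of 6 steps called.

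ARID4A, a DNA-binding subunit of the SIN3 corepressor, reached the highest level of any member after DNMT1 and UHRF2. It stood at 274, 136, 102, 176, 18.5, 8.27, 8.01 and 4.96 FPKM in IV-D, at 165, 199.9, 236, 226, 24.3, 32.2, 6.4 and 5.14 in NT-D and at 235, 136, 207, 38.6, 12.4, 7.1 and 4.8 in NT-LW libraries. The fall from 4C to 8C was 2.92 ± 0.35 (SE; limma, adjusted p = 2.62e-06). The lowest library up to 4C stood at 102 FPKM and the highest later one at 38.6 FPKM. ARID2, of PBAF, stood at 14.9, 21.1, 13, 7.14, 5.85, 4.42, 2.14 and 4.64 FPKM in IV-D, at 23.3, 32.5, 16.8, 13, 5.81, 8.82, 3.38 and 2.34 in NT-D and at 17.1, 20.3, 13.9, 7.72, 5.48, 3.28 and 2.7 in NT-LW libraries. No single step of ARID2 was called, whereas late stages were 1.66 ± 0.18 lower than early ones (limma, adjusted p = 5.55e-08). ARID1A, the BAF subunit, had a median of 5.28 FPKM over the 23 libraries and ARID5B, a partner of a histone demethylase, 1 of 1.19 FPKM, and limma called 0 of their 6 steps.

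The question of the study was how cloned embryos differ from fertilized ones. Over all 7 embryo stages, none of the 51 members differed between embryo groups by the fit across all genes. For NT-D against IV-D limma called 0 members (0.0233% of all genes). At an unadjusted p under 0.05 there were 2 members, against 13.9% of all genes (ARID4A at 0.58 ± 0.23 and CHD3 at 0.38 ± 0.17, SE). For NT-LW against IV-D limma called 0 members (0.221% of all genes). At the unadjusted limit there were 2, against 15.6% of all genes (BRD8 at 0.45 ± 0.18 and BRD10 at 0.45 ± 0.20). For NT-LW against NT-D limma called 0 (0.0116% of all genes), with 1 at the unadjusted limit (1.94% of all genes). Voom on recovered fragments called 0 in each. Members lay between -0.46 and 0.68 in NT-D against IV-D, with a median of 0.08 against 0.08 for all genes, and between -0.33 and 0.53 in NT-LW against IV-D, with a median of 0.16 against 0.13 for all genes. The 2 comparisons share the IV-D libraries. The median SE of a member was 0.24, and the test was of a difference held over all 7 stages, not of one at a single stage. Of these stages, IT and TE are parts of cut blastocysts and not independent repeats.

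A change of the clone difference between early stages (1C to 4C) and late stages (8C to TE) was tested with an interaction term. For NT-D against IV-D limma called 0 members (0% of all genes), and for NT-LW against IV-D 0 members (0.105% of all genes). At an unadjusted p under 0.05 the counts were 8 members (10.7% of all genes) and 9 members (18.6% of all genes). Voom called 0 in both. The nearest to the threshold was SMARCB1, a core subunit of SWI/SNF. It stood at 2.11, 1.07, 0.547, 0.991, 2.51, 3.88, 4.61 and 3.57 FPKM in IV-D, at 1.9, 3.5, 1.28, 1.52, 1.29, 3.11, 1.85 and 3.39 in NT-D and at 4.87, 4.26, 1.75, 0.704, 3.52, 2.25 and 1.89 in NT-LW libraries. In 1-cell and 2-cell embryos both clone groups were above IV-D and in 8-cell embryos both were below. The late minus early difference of SMARCB1 was -1.89 ± 0.41 (SE) in NT-LW (limma, adjusted p = 0.0539, from 0.0303 to 0.308 under the alternatives) and -1.15 ± 0.41 in NT-D (limma, adjusted p = 0.371). The median of all genes in these contrasts was -0.32 for NT-LW and -0.15 for NT-D, and with median-ratio scaling 0.03 and 0.04. Without the 4-cell libraries limma called 3 members for NT-LW, KAT7, SMARCB1 and SMARCC2. The share of all genes called in that fit is not given here.

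At single stages the table has 1 library a group, so no test was possible here. Members were counted when log2(FPKM + 1) differed by more than 1 and at least 1 of the libraries compared reached 1 FPKM. At 4C, NT-D had 3 members above IV-D (against 8.5% of the 8603 genes) and 5 below (11.5% of all genes), and NT-LW had 5 above (9.45%) and 3 below (8.26%). The 3 above in both clone groups (6.33% of all genes) were ARID5B, ING2 and MBD4, and the 3 below in both (6.25%) were CHD2, KAT14 and SMARCA1. Both comparisons share the 1 IV-D library of the stage, here and at 8C. CHD2 stood at 15.9 FPKM in the IV-D library and at 4.19 and 5.38 FPKM in NT-D and NT-LW. SMARCA1 stood at 8.42 FPKM against 1.07 and 0.560 FPKM, and MBD4 at 0.401 FPKM against 3.28 and 2.0 FPKM. KAT14, of the ATAC complex, stood at 1.73 FPKM against 0.196 and 0.356 FPKM, and ING2 at 0.0578 FPKM against 2.91 and 2.41 FPKM. In 1 clone group alone, CHD1 and SIRT7 were below IV-D in NT-D and BRD10 and SIRT1 above it in NT-LW, SIRT1 with 31.7 FPKM against 8.81. All 6 shared genes were past the limit with median-ratio scaling as well, except ARID5B in NT-LW (0.98). The donor fibroblast markers also differed between these 3 libraries (5.48 FPKM in IV-D, 126.8 and 145 FPKM in the clones). Of these sums S100A4 held 95.3 FPKM in NT-D and 114 FPKM in NT-LW. The 4 of 7 genome activation markers in the table differed too, with 506 FPKM in IV-D, 88.3 in NT-D and 198 in NT-LW. The part of either marker list in the differences was not tested, nor was that of embryo sex for SMARCA1, which is on the X chromosome.

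At 8C, NT-D had 4 members above IV-D (9.38% of all genes) and 7 below (15.1%), and NT-LW had 5 above (14.5%) and 6 below (15.3%). The 5 members HDAC1, HDAC6, KAT2A, KAT8 and SIRT7 were below IV-D in both clone groups (11.6% of all genes). HDAC6 is on the X chromosome, and the part of embryo sex in its difference was not tested. SIRT7 stood at 4.13 FPKM in IV-D and at 1.21 and 0.760 FPKM in NT-D and NT-LW, and KAT8 at 2.89 FPKM against 0.903 and 0.758 FPKM. By the morula KAT8 stood at 6.06, 5.97 and 6.38 FPKM in IV-D, NT-D and NT-LW. With median-ratio scaling HDAC1 and SIRT7 were still past the limit in both clone groups (-1.04 and -1.02 in NT-D, -1.20 and -1.36 in NT-LW), while HDAC6, KAT2A and KAT8 lay between -0.82 and -0.99, short of it. The 2 above IV-D in both (7.67% of all genes) were HDAC9 and UHRF2, transcripts that the earlier stages held at a higher level. With that scaling UHRF2 was past the limit in both and HDAC9 in NT-LW alone (1.05). UHRF2 stood at 23.5 FPKM in IV-D, 73.6 FPKM in NT-D and 49.7 FPKM in NT-LW. DNMT1 passed the limit in NT-LW, with 240.5 FPKM against 53.6, and not in NT-D with 88.7 FPKM. In 1 clone group alone, CHD6 and SMARCAL1 were above and CHD1L and HDAC3 below IV-D in NT-D, and ARID4A and ING2 were above and SMARCB1 below in NT-LW. The summed oocyte markers were also higher in both clone libraries, with 42.4 FPKM in IV-D, 313 FPKM in NT-D and 555 FPKM in NT-LW, and their part in these differences was not tested.

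**Figure D5:**
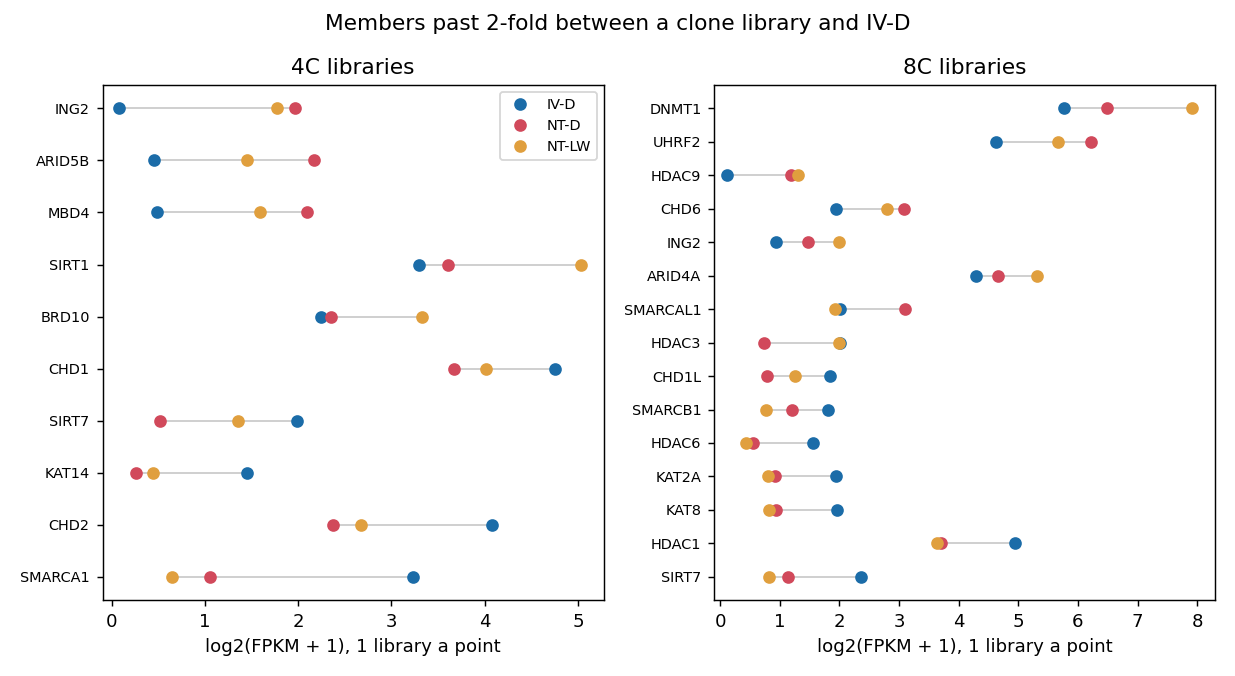
Level of the members past the 2-fold limit in 1 or both clone groups at 4C (left) and 8C (right), as log2(FPKM + 1) on the horizontal axis, each point 1 library of IV-D (blue), NT-D (red) or NT-LW (orange), sorted by the mean clone minus IV-D difference. At 4C the IV-D point of SMARCA1 (8.42 FPKM) lies to the right of both clone points, and at 8C HDAC1 is higher in IV-D (29.6 FPKM) than in both clone groups while DNMT1 and UHRF2 are lower.

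The 2-cell stage was looked at by the same limit after its values were seen. In NT-LW 23 members stood above IV-D (28.2% of all genes) and 0 below (2.85%), and in NT-D 2 stood above (4.88% of all genes) and 0 below (1.43%). With median-ratio scaling the counts were 9 above (10.4% of all genes) and 4 below (15.9%) in NT-LW and 0 above (2.35%) and 0 below (4.38%) in NT-D, and the median of all genes went from 0.66 to -0.10 in NT-LW. The 9 included KAT2A, with 13.9 FPKM against 2.11 in IV-D, HDAC3, with 8.09 FPKM against 1.11, and SMARCD1, with 12.9 FPKM against 1.55. In all 3 of them the NT-D library, at 2.20, 2.11 and 3.64 FPKM, was nearer to the IV-D than to the NT-LW level.

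Between the oocytes, 5 members were higher in the in vitro matured library than in the in vivo matured one (10.5% of all genes) and 0 were lower (1.19%). They were ARID1A, CHD4, DNMT3B, ING1 and UHRF1. ING1 stood at 23.1 FPKM in the in vitro and 7.89 FPKM in the in vivo matured oocytes, and DNMT3B at 8.33 and 3.17 FPKM. With median-ratio scaling the split was 2 higher (ARID1A and ING1) and 3 lower (ARID4A, KAT6B and SMARCAD1). The median difference of all genes was 0.25 before and -0.06 after scaling.

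Genes that work with the members but lie outside their families were read from 5 lists. The shares of all genes to set beside their counts are, as above, 31.3% rising and 26.7% falling from 4C to 8C, 16.1% and 8.14% from 2C to 4C, and 45.2% higher and 38.5% lower in late than in early stages. Of 19 corepressor subunits in the table, 1 rose and 10 fell from 4C to 8C, and 3 were higher and 15 lower in late than in early stages. SIN3A, the scaffold of the SIN3 complex, stood at 420.3, 211 and 169.7 FPKM in the IV-D, NT-D and NT-LW 4-cell libraries and at 11.4, 12.2 and 25.2 FPKM at 8C, a fall of 3.93 ± 0.61 (SE; limma, adjusted p = 3.38e-05). MTA3, of NuRD, fell by 1.93 ± 0.29 (limma, adjusted p = 2.51e-05), and SAP18 was the 1 that rose, by 0.93 ± 0.28 (limma, adjusted p = 0.00945). Of 35 remodelling partners 12 rose and 6 fell at this step. ACTL6A, an actin-like subunit of SWI/SNF and INO80, rose by 2.88 ± 0.29 (limma, adjusted p = 3.56e-07), from 29.7, 18.1 and 21.8 FPKM to 194, 179.8 and 149 FPKM, and EPC1, of NuA4, fell by 2.5 ± 0.35 (limma, adjusted p = 1.11e-05).

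Of the 16 DNA methylation partners with a row, 3 rose and 3 fell from 4C to 8C and 4 rose from 2C to 4C. NAP1L1, a histone chaperone, rose by 3.55 ± 0.31 from 4C to 8C (SE; limma, adjusted p = 7.31e-08) and ZBTB33, which binds methylated DNA, fell by 2.63 ± 0.37 (limma, adjusted p = 1.36e-05). Of 7 other acetyltransferases 2 rose and 2 fell from 4C to 8C. HAT1, which acetylates new histones before they reach DNA, stood at 661, 861 and 737 FPKM in the 8-cell libraries after a rise of 1.89 ± 0.31 (limma, adjusted p = 5.31e-05). EP300, a major acetyltransferase of enhancers, rose by 1.43 ± 0.33 from 2C to 4C (limma, adjusted p = 0.00342) and stood at 2.14 to 4.22 FPKM in the 4-cell libraries. Of 13 further acetyl readers 4 rose and 1 fell from 2C to 4C and 2 rose and 4 fell from 4C to 8C. BRDT, the bromodomain gene known from testis, rose by 2.41 ± 0.57 from 2C to 4C (limma, adjusted p = 0.00417) and reached 607 FPKM in IV-D 8-cell embryos, against 184 and 154 FPKM in NT-D and NT-LW. In the 2 comparisons of clones with IV-D over all stages limma called 0 genes of the 5 lists.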

How the data were processed

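RNA-seq libraries of porcine oocytes and embryos were analysed, 1 for each of 23 conditions. The deposited values are FPKM. The authors made poly(A)-primed SMART-Seq v4 libraries, and their processing notes name HISAT2 2.0.4, HTSeq 0.9.1, DESeq and the build Sscrofa11.1. The table lists 8603 genes that differed between conditions by its name, so shares are shares of such genes. A level depends on depth and on gene length. Whole fragments were recovered from the FPKM steps for 8603 genes, with 100% of values within 0.05 of a whole number, and gave the depth of each library.

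Groups came from the sample labels. Genes that reached 1 FPKM were fitted as log2(FPKM + 1) with limma 3.58.1 in R 4.3.3, with a variance trend and terms for stage and embryo group (or group by early and late stages), on 21 libraries without oocytes. P-values were adjusted by Benjamini-Hochberg over 8601 genes. With 1 library a condition, stages served as repeats of a group and groups as repeats of a stage, so p-values measure the spread between such libraries. IT and TE are parts of cut blastocysts and are not independent of each other, although each was counted as a stage. A fold change is on this scale and understates that of low genes. Single stages were compared by a limit of 1 on this scale, with no test. Tables and plots were made with Python 3.11.15.

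Members were found by symbol and all 51 are counted, but the values of 1 member and 1 upstream sequence are not reported here. The members and gene lists were chosen with earlier results of these data known. Values in every library are given for the DNA methylation genes and class I deacetylases, for the highest and the most varying members of each family, for the largest changes of the 2C to 4C and 4C to 8C steps and for members past the limit in both clone groups with at least 10 FPKM there. SMARCB1 and the 2-cell comparison were added after their values were seen. Alternatives were a pseudocount of 0.1, a minimum of 5 FPKM or none, median-ratio scaling, voom on the recovered fragments, leaving out TE or adding oocytes, and leaving out each embryo group or stage.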

Additional observations from a re-analysis of the deposited data

How the results depend on the processing

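Of 159 alternative values of the counts of members, 136 lay within 1.5 times the reported count, 23 did not, and 0 members had a call of the opposite sign. The shares of all genes under these alternatives are not given here, so the counts below describe the members alone. The pseudocount, the minimum level and voom left the counts of the 6 steps and of early against late stages within 1.5 times. With the oocyte libraries 8 members were called from 8C to MO, 11 from MO to IT and 1 in the early to late change of NT-LW (SMARCB1, limma, adjusted p = 0.0455). With median-ratio scaling 2 were called from MO to IT, and the single-stage limit was passed by 6 members in NT-D and 7 in NT-LW at 8C. With a minimum of 5 FPKM it was passed by 3 and 4 members in NT-D and 4 and 4 in NT-LW at 4C and 8C. With a pseudocount of 0.1 it was passed by 17 members in NT-LW at 8C and by 10 in the oocytes. The cause of these shifts was not tested, except that a minimum of 5 FPKM leaves fewer members to count. Leaving out 1 embryo group gave 0 to 5 called members from 1C to 2C (5 without NT-LW), 4 to 12 from 2C to 4C (4 without NT-D, 8 without NT-LW), 12 to 23 from 4C to 8C (12 without NT-D), 0 to 12 from 8C to MO (12 without IV-D, 0 without NT-D, 2 without NT-LW), 0 to 15 from MO to IT (15 without IV-D, 0 without NT-D, 1 without NT-LW) and 33 to 38 between early and late stages. Leaving out 1 stage gave 0 in all comparisons of embryo groups and 0 to 3 in the early to late change of NT-LW (3 without 4C). Embryo groups were matched by stage through the stage term, and there are no replicate numbers to pair by. Depth limits what can be said of members at a few fragments, such as HDAC9 and UHRF1 in the blastocyst.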
